A study of Oryctolagus cuniculus with 15 samples.

Results

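The genes described here encode the enzymes and the chaperone that hydroxylate, fold and trim newly made collagen: P4HA1, P4HA2, P4HB, PLOD1, PLOD2, PLOD3, SERPINH1, PCOLCE and BMP1. They were chosen by name. Of these 9 genes, 6 were found by symbol among the 23428 genes of the deposited table, and SERPINH1 and PLOD3 were found through RefSeq gene IDs, under rows with no symbol. P4HB is not analysed here. Counts of genes below refer to the 6 found by symbol, and SERPINH1 and PLOD3 are described beside them.

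The libraries are bulk RNA-seq of first-passage corneal keratocytes, the resident cells of the corneal stroma, from New Zealand white rabbit eyes, kept in serum-free medium for 6 days. There were 15 libraries, 3 for each of 5 conditions, each pooled from several dishes or matrices. The 3 libraries of a condition came from separate experiments. Some libraries of different conditions have the same prefix in their library names. Cells grew on dishes coated with bovine type I collagen (2DC), on the surface of a fibrillar collagen gel matrix (2DF), or inside such a matrix at 100000 cells each (3DF) or 50000 cells each (3DF_50). All of these were incubated in digestion medium before lysis, whereas 2DC_L is the coated dish lysed directly. Between 14626982 and 31804255 reads were assigned to genes per library. Levels are given as FPKM, the deposited fragment counts scaled to gene length and library depth, so that they can be set against each other between genes. The counts behind them ranged from 71 for PLOD2 in its lowest library to 35167 for PLOD1 in its highest. In bulk RNA, fewer cells of a type and less RNA per cell cannot be told apart.

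Procollagen chains are modified while they enter the endoplasmic reticulum. Prolyl hydroxylases convert proline so that the helix is stable at body temperature, and lysyl hydroxylases prepare lysine for sugars and for crosslinks. The chaperone HSP47, the product of SERPINH1, holds the folded helix until export, and secreted proteinases then cut off the propeptides so that fibrils can form. In the cornea these steps precede the assembly of thin, evenly spaced fibrils by keratocytes.

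The culture condition separated most of these genes. Across the 5 conditions all 6 genes passed the F test on counts in edgeR, a test that 41.8% of the 14036 genes tested passed. P4HA2 had an adjusted p of 3.90e-09 and ranked 22 of all genes, and P4HA1 had an adjusted p of 1.55e-07. PLOD1 passed only narrowly, at an edgeR adjusted p of 0.0413. It did not pass with scaling by library size alone (adjusted p = 0.310), with the replicate number as a block (0.0624) or with the library prefix as a term (0.104). Without replicate 1 of 2DC, PLOD1 had an adjusted p of 0.0739. The other libraries whose loss took PLOD1 past 0.05 were 2DC replicate 2, 2DC_L replicates 1 and 2, 2DF replicates 1 and 3, 3DF replicate 2, and 3DF_50 replicates 2 and 3. SERPINH1 and PLOD3 also passed, at 1.65e-06 and 3.72e-07.

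The levels of the genes differed widely. In 2DC, SERPINH1 had the highest level at 519 ± 16.6 FPKM, and PLOD3 at 36.5 ± 0.803 FPKM and PLOD2 at 3.21 ± 0.994 FPKM had the lowest (SD, n = 3). PCOLCE at 409 ± 90.1 FPKM and PLOD1 at 361 ± 25.9 FPKM followed SERPINH1 and overlapped each other. P4HA1 at 99.4 ± 6.70 and BMP1 at 103 ± 12.7 FPKM also overlapped. P4HA2 at 146 ± 12.0 FPKM lay above both.

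**Figure D1:**
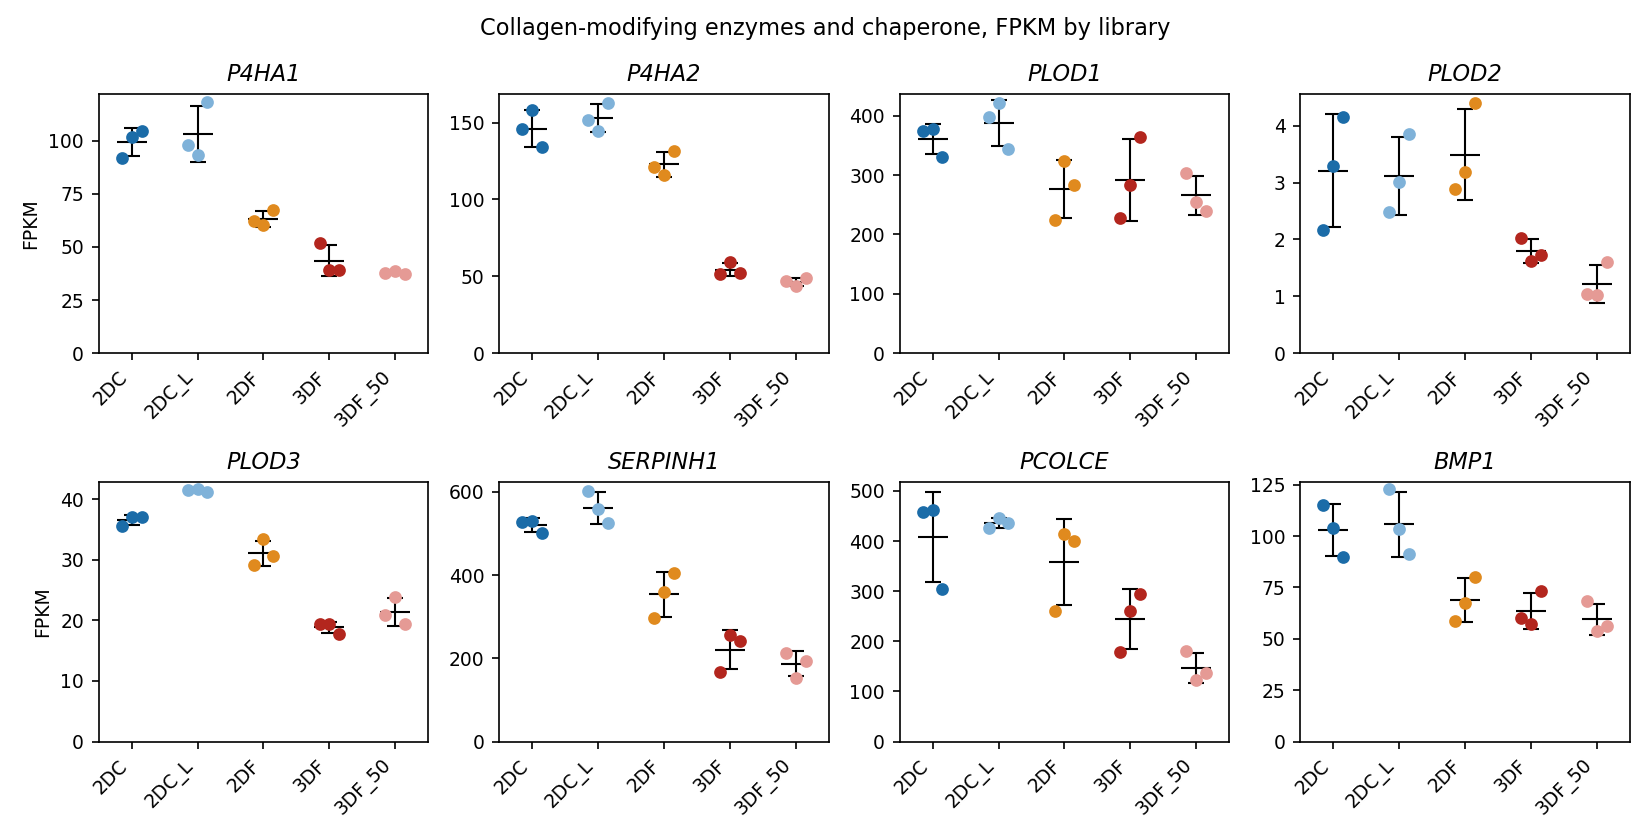
FPKM of 8 genes in each of the 15 libraries, by culture condition, with points for libraries, and bars for the mean and SD of 3 libraries; each panel has its own axis from 0. P4HA2 lay between 116 and 163 FPKM in all libraries on a dish or on top of a matrix and between 43.7 and 59.3 FPKM in all libraries within a matrix, while PLOD1 overlapped between 2DC and 3DF.

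P4HA1 (chromosome 18, 14332290 to 14438275 in the rabbit assembly oryCun2, plus strand) encodes a catalytic subunit of prolyl 4-hydroxylase. Its level in replicates 1, 2 and 3 was 91.9, 102 and 105 FPKM in 2DC and 62.1, 60.4 and 67.3 FPKM in 2DF. Within matrices it was 52.0, 39.3 and 39.3 FPKM in 3DF and 37.7, 38.6 and 37.3 FPKM in 3DF_50. The libraries of 2DC, 2DF and 3DF did not overlap, and replicate 1 of 3DF stood above the other libraries within matrices. P4HA1 fell by 0.65 on the log2 scale from 2DC to 2DF (SE 0.09, edgeR adjusted p = 0.00239). That call was lost with the library prefix as a term (edgeR adjusted p = 0.431). From 2DC to 3DF P4HA1 fell by 1.20 (SE 0.14, edgeR adjusted p = 0.000997). The further difference of -0.53 between 3DF and 2DF missed the threshold (SE 0.15, edgeR adjusted p = 0.0640). Without 3DF replicate 1 that difference was -0.68, at an edgeR adjusted p of 0.00438, and DESeq2 called it (adjusted p = 0.0169).

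P4HA2 (chromosome 3, 15256234 to 15293994, minus strand), the other catalytic subunit measured, differed more sharply between the surface and the interior of a matrix. Its level was 146, 158 and 134 FPKM in the 2DC libraries and 121, 116 and 132 FPKM in the 2DF libraries. It was 51.4, 59.3 and 52.2 FPKM in 3DF and 46.6, 43.7 and 48.6 FPKM in 3DF_50. The highest library within a matrix was below the lowest library on top of one by more than the range of either. P4HA2 was 0.370 times its 2DC level in 3DF, a log2 ratio of -1.44 (SE 0.12, edgeR adjusted p = 0.000273). Against 2DF it fell by 1.17 (SE 0.13, edgeR adjusted p = 0.000990), a call lost with the library prefix as a term (0.145 in edgeR). From 2DC to 2DF the log2 difference was -0.24 and missed the threshold (SE 0.10, edgeR adjusted p = 0.131).

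The balance of these catalytic subunits varied between conditions. The ratio of P4HA2 to P4HA1 FPKM was 1.47 ± 0.169 in 2DC but 1.94 ± 0.0174 in 2DF, and 1.27 ± 0.265 within the 3DF matrices (SD, n = 3). In 2DC_L it was 1.49 ± 0.0976 and in 3DF_50 it was 1.22 ± 0.0859. All 3 libraries of 2DF, from 1.92 to 1.96, exceeded every other library, the highest of which was 1.59. An exact permutation test of the 15 libraries over the 5 conditions gave p = 0.00444, one-sided, or 0.00888 adjusted over the 4 ratios tested.

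**Figure D2:**
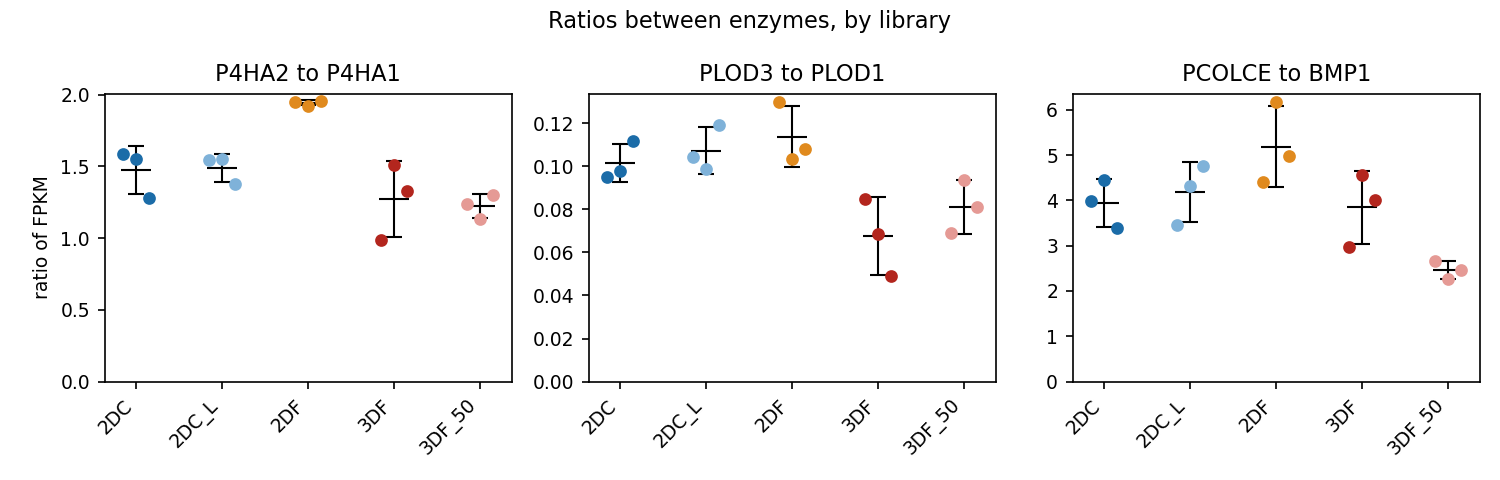
Ratio of FPKM between pairs of enzymes in each library, by culture condition, with the mean and SD of 3 libraries; axes start at 0. The P4HA2 to P4HA1 ratio was highest in 2DF (1.92 to 1.96), the PLOD3 to PLOD1 ratio was lowest in 3DF and 3DF_50, and the PCOLCE to BMP1 ratio was lowest in 3DF_50 (2.27 to 2.66).

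PLOD1 (scaffold Un0041, 2099089 to 2128215, minus strand) encodes the lysyl hydroxylase that acts on the helical part of collagen, and its condition means differed least among these genes. Its level was 375, 377 and 331 FPKM in 2DC, 225, 323 and 283 FPKM in 2DF and 229, 283 and 365 FPKM in 3DF. In 3DF_50 it was 303, 255 and 239.9 FPKM. The 3DF libraries spanned most of the range of the other conditions and overlapped 2DC. The log2 difference between 3DF and 2DC was -0.31 (interval -0.73 to 0.10, SE 0.18, edgeR adjusted p = 0.287). From 2DC to 2DF it was -0.38 (interval -0.69 to -0.06 before adjustment, SE 0.14, edgeR adjusted p = 0.104), a difference that DESeq2 called (adjusted p = 0.0375). PLOD1 fell by 0.44 in 3DF_50 vs. 2DC (SE 0.11, edgeR adjusted p = 0.0154), but with scaling by library size alone this difference was -0.08 (edgeR adjusted p = 0.531). Without 2DC replicate 2 or 3DF_50 replicate 3 its edgeR adjusted p was 0.0685 or 0.0574. With all 5 conditions in the fit the edgeR adjusted p was 0.0579, and with the library prefix as a term it was 0.0721.

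PLOD2 (chromosome 14, 39741249 to 39840307, minus strand) encodes the hydroxylase of the telopeptides, the ends where stable crosslinks form, and was the rarest member. It was at 2.17, 3.30 and 4.15 FPKM in 2DC, 2.88, 3.19 and 4.39 FPKM in 2DF, and 2.03, 1.62 and 1.73 FPKM in 3DF. In 3DF_50 it was at 1.04, 1.01 and 1.60 FPKM. The 2DC and 2DF libraries overlapped, and every library within a matrix was below every library outside one. Against 2DF, PLOD2 fell by 0.95 in 3DF (SE 0.21, edgeR adjusted p = 0.0245). Against 2DC it fell by 0.84 in 3DF, just inside the threshold (SE 0.24, edgeR adjusted p = 0.0482), and by 1.39 in 3DF_50 (SE 0.27, edgeR adjusted p = 0.00390). The 3DF vs. 2DC call was lost without 2DC replicate 2 or 3 or 3DF replicate 2 or 3 (edgeR adjusted p from 0.112 to 0.161), and the 3DF vs. 2DF call without 2DF replicate 2 or 3 or 3DF replicate 2 or 3 (0.0601 to 0.101). Scaled by library size alone, PLOD2 was at -0.68 in 3DF vs. 2DC (edgeR adjusted p = 0.0894), and limma on log2(FPKM + 1) gave -0.57 (adjusted p = 0.0879). The call was also lost with limma on log2(FPKM + 0.1) (adjusted p = 0.107), with scaling computed without collagen genes (0.0520) and with the replicate number as a block (0.0709). The 3DF vs. 2DF call was lost with limma on log2(FPKM + 0.1) (adjusted p = 0.0758), with the replicate number as a block (0.0548 in edgeR) and with the library prefix as a term (0.325).

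PLOD3, which encodes a lysyl hydroxylase that also adds sugars to hydroxylysine, was measured on scaffold Un0133 (251372 to 253118, minus strand). That row covers 1147 bases, and a neighbouring row of 1150 bases (246812 to 249467) is annotated as another piece of the gene, so the total level is uncertain. The level was 35.6, 37.0 and 37.0 FPKM in 2DC, 29.2, 33.4 and 30.6 FPKM in 2DF and 19.4, 19.4 and 17.8 FPKM in 3DF. All 3DF libraries were below all 2DF libraries, and these were below all 2DC libraries. PLOD3 fell by 0.96 in 3DF vs. 2DC (SE 0.11, edgeR adjusted p = 0.000788) and by 0.71 in 3DF vs. 2DF (SE 0.13, edgeR adjusted p = 0.0123). The latter call was lost without 2DF replicate 2 or 3 or 3DF replicate 3 (edgeR adjusted p from 0.0509 to 0.0614). It was also lost with the library prefix as a term (edgeR adjusted p = 0.678). The neighbouring row fell by 1.30 in 3DF vs. 2DC (SE 0.14, edgeR adjusted p = 0.000769).

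PLOD1 made up most of the lysyl hydroxylase transcripts per length in every library. Its share of the summed FPKM of PLOD1, PLOD2 and PLOD3 averaged 90.0% for 2DC, 88.8% for 2DF and 93.1% for 3DF. The ratio of PLOD3 to PLOD1 was 0.102 ± 0.00891 for 2DC, 0.114 ± 0.0142 for 2DF and 0.0675 ± 0.0181 for 3DF (SD, n = 3; exact permutation test over 5 conditions, p = 0.0126, one-sided, adjusted 0.0168). All 3DF libraries, up to 0.0850, lay below all 2DC libraries, from 0.0950. For PLOD2 to PLOD1 the same exact test gave p = 0.0334, with means from 0.00468 in 3DF_50 to 0.0127 in 2DF. Its p ranged from 0.0194 to 0.0922 when single libraries were left out, and rose above 0.05 without 2DC replicate 2, 2DF replicate 1 or 3, 3DF replicate 2, or 3DF_50 replicate 1 or 2.

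SERPINH1 (chromosome 1, 141171454 to 141175283, minus strand), the collagen chaperone, was among the most abundant of these transcripts. It was at 527, 531 and 500.3 FPKM in 2DC and at 297, 361 and 405 FPKM in 2DF. Within matrices it was at 167, 255 and 241 FPKM in 3DF and at 213, 154 and 193 FPKM in 3DF_50. The 3 coated-dish libraries lay close together and above all others from matrices. SERPINH1 fell by 0.55 from 2DC to 2DF (SE 0.12, edgeR adjusted p = 0.0172), a call lost without 2DC replicate 1 or 2 or 2DF replicate 1 or 2 (edgeR adjusted p from 0.0503 to 0.0896). The call was also lost with the library prefix as a term (edgeR adjusted p = 0.654) and with limma on log2(FPKM + 0.1) (adjusted p = 0.0693). In 3DF SERPINH1 was 0.423 times its 2DC level, a log2 ratio of -1.24 (SE 0.17, edgeR adjusted p = 0.00238). The log2 difference from 2DF to 3DF was -0.68 and missed the threshold (SE 0.19, edgeR adjusted p = 0.0649), whereas DESeq2 called it (adjusted p = 0.00942). A second row annotated as similar to SERPINH1 (chromosome 19, 35833086 to 35834435) could share reads with it and fell by 1.11 in 3DF vs. 2DC (SE 0.10, edgeR adjusted p = 0.000386).

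BMP1 (scaffold Un0100, 471311 to 509322, minus strand) encodes the proteinase that removes the C-propeptide. It was at 115, 104 and 89.8 FPKM in 2DC, 58.9, 67.3 and 80.2 FPKM in 2DF and 60.0, 57.0 and 73.4 FPKM in 3DF. Both matrix conditions lay below 2DC and overlapped each other. BMP1 fell by 0.58 in 2DF vs. 2DC (SE 0.13, edgeR adjusted p = 0.0232) and by 0.71 in 3DF vs. 2DC (SE 0.15, edgeR adjusted p = 0.0133). The former call was lost without 2DC replicate 1 or 2 or 2DF replicate 1 or 2 (edgeR adjusted p from 0.0719 to 0.0941), and the latter without 2DC replicate 2 (0.0623). The former was also lost with the library prefix as a term (edgeR adjusted p = 0.504) and with limma on log2(FPKM + 0.1) (adjusted p = 0.0913). Between 3DF and 2DF the log2 difference was -0.11 (interval -0.47 to 0.24, SE 0.16, edgeR adjusted p = 0.710).

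PCOLCE (chromosome 6, 27188473 to 27193636, minus strand) encodes a secreted protein that enhances the activity of BMP1 on procollagen. It was at 459, 463 and 305 FPKM in 2DC, 259, 415 and 399 FPKM in 2DF and 178, 259.9 and 294 FPKM in 3DF. In 3DF_50 it was at 181, 123 and 138 FPKM. Replicate 3 of 2DC lay far below replicates 1 and 2, and the 3DF libraries were all below it. The log2 difference of -0.75 between 3DF and 2DC missed the threshold (SE 0.23, edgeR adjusted p = 0.0603). Without 2DC replicate 3 it was -0.92, at an edgeR adjusted p of 0.0377, and DESeq2 called the difference over all libraries (adjusted p = 0.00951). PCOLCE fell by 1.47 in 3DF_50 vs. 2DC (SE 0.19, edgeR adjusted p = 0.000482). The ratio of PCOLCE to BMP1 was 3.94 ± 0.532 in 2DC, 5.18 ± 0.896 in 2DF, 3.84 ± 0.812 in 3DF and 2.46 ± 0.192 in 3DF_50 (SD, n = 3; exact permutation test over 5 conditions, p = 0.00443, one-sided, adjusted 0.00888). All 3DF_50 libraries, at most 2.66, were below every other library, the lowest of which was a 3DF library at 2.96.

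The comparisons share their libraries, 2DC in particular, and are therefore given side by side. A gene was counted as lower when its edgeR adjusted p did not exceed 0.05, and as a DEG when the |log2 fold change| was also at least 1. In 3DF vs. 2DC 4 of the 6 genes were lower (P4HA1, P4HA2, PLOD2 and BMP1), against 8.38% of all genes tested, and 2 were DEGs (P4HA1 and P4HA2), against 4.32%. The median log2 fold change of the 6 was -0.80, beside 0.01 for all genes. Without 2DC replicate 2 only 2 of the 6 were lower.

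Between 2DF and 2DC 2 of 6 were lower (P4HA1 and BMP1), against 7.63% of all genes, with a median of -0.31. This count was 1 without any 1 of 2DC replicates 1 and 2 and 2DF replicates 1 and 2. Between 3DF and 2DF 2 of 6 were lower (P4HA2 and PLOD2), against 2.65%, and P4HA2 was the DEG, against 1.69%. The median was -0.54. Here the count was 1 without 2DF replicate 2 or 3 or 3DF replicate 2 or 3. Without 2DF replicate 1 or 3DF replicate 1, 2 of the 6 were DEGs. No member was higher in either comparison at this threshold.

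**Figure D3:**
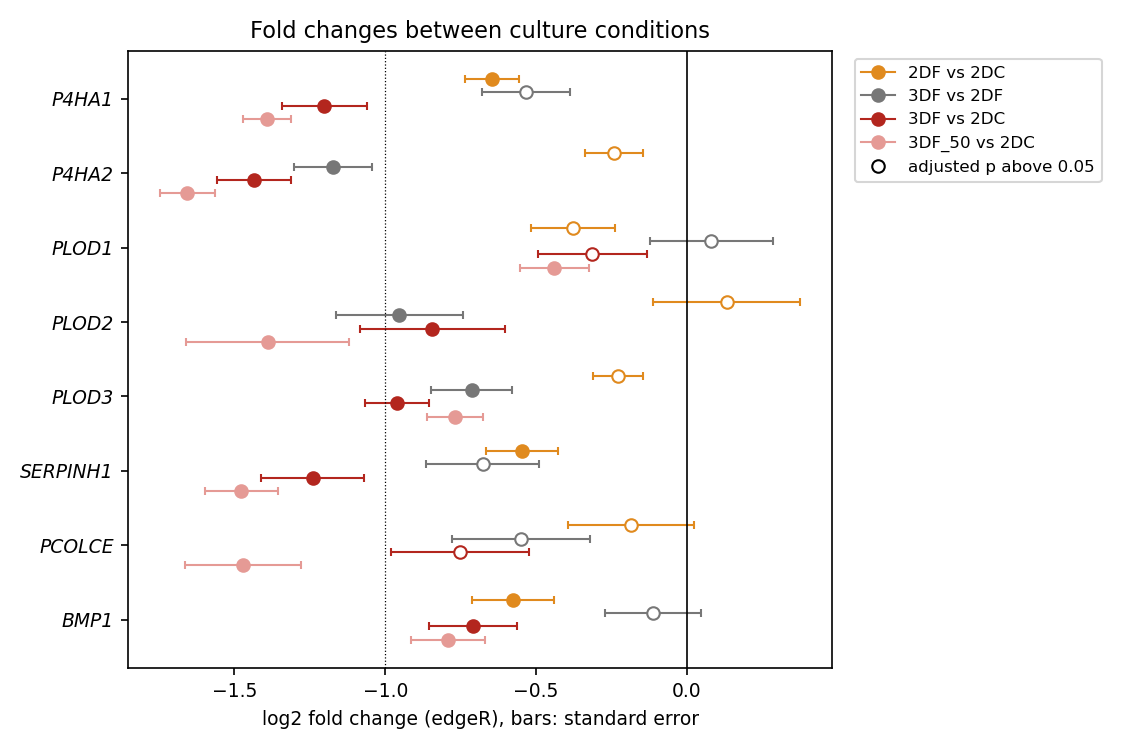
Log2 fold change and standard error from edgeR for 8 genes in 4 comparisons, with filled points at an adjusted p of at most 0.05 and the dotted line at a log2 fold change of -1. P4HA1, SERPINH1 and BMP1 were lower already in 2DF vs. 2DC, and P4HA2, PLOD2 and PLOD3 were lower in 3DF vs. 2DF. In 3DF vs. 2DF, P4HA1 and SERPINH1 narrowly missed the threshold (edgeR adjusted p = 0.0640 and 0.0649). All of these calls were lost with the library prefix as a term.

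At the lower cell number the decreases were as broad or broader. All 6 genes were lower in 3DF_50 vs. 2DC, against 20.3% of all genes, and 4 were DEGs (P4HA1, P4HA2, PLOD2 and PCOLCE), against 7.33%. Their median log2 fold change was -1.39. P4HA2 was 0.318 times its 2DC level (log2 ratio -1.66, SE 0.09, edgeR adjusted p = 6.32e-06). SERPINH1 fell by 1.48 (SE 0.12, edgeR adjusted p = 4.00e-05). Against 2DF 4 of 6 were lower (P4HA1, P4HA2, PLOD2 and PCOLCE), compared with 8.58% of all genes, and 3 were DEGs (P4HA2, PLOD2 and PCOLCE), compared with 3.01%. P4HA1 was not called there with the library prefix as a term (edgeR adjusted p = 0.165). PLOD1 and BMP1 had log2 differences of -0.04 and -0.19 there, and both turned positive, to 0.19 and 0.04, with scaling by library size alone.

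Between the cell densities, 3DF vs. 3DF_50, edgeR called 0 of the 6 genes, where 0.617% of all genes passed. Unadjusted, 2 of the 6 had p under 0.05, and DESeq2 called 1. PCOLCE had the largest log2 difference, 0.70 higher in 3DF (SE 0.21, edgeR adjusted p = 0.134). Without 3DF replicate 1 it was 0.89, at an edgeR adjusted p of 0.0314. For PLOD2 the difference was 0.53 (SE 0.23, edgeR adjusted p = 0.240), and for P4HA1, P4HA2 and SERPINH1 it was between 0.18 and 0.22. PLOD3 ran the other way, at 18.9 ± 0.913 FPKM in 3DF and 21.4 ± 2.28 FPKM in 3DF_50 (SD, n = 3), a log2 difference of -0.21 (SE 0.14, adjusted p = 0.417 in edgeR).

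Incubation in digestion medium left no difference that edgeR called among the 6 genes, 2DC vs. 2DC_L, where 0.367% of all genes were called. DESeq2 also called 0, and 0 had an unadjusted p under 0.05 in edgeR. The level of P4HA1 in 2DC_L was 98.3, 93.2 and 118 FPKM and that of P4HA2 was 152, 145 and 163 FPKM, overlapping 2DC. SERPINH1, at 601, 559 and 525 FPKM, and BMP1, at 123, 103 and 91.3 FPKM, overlapped 2DC as well. PLOD3 was higher in every 2DC_L library (41.5, 41.6 and 41.1 FPKM) than in every 2DC library, a log2 difference of -0.18 in 2DC vs. 2DC_L (SE 0.06, edgeR adjusted p = 0.748).

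The genes were then set beside their substrate. The 42 collagen chain genes of the table took 22.2, 20.7 and 17.3% of the counts in the 2DC libraries and 21.6, 19.6 and 20.3% in 2DC_L. They took 12.5, 14.1 and 16.6% in 2DF, 10.4, 11.2 and 12.6% in 3DF, and 8.26, 7.19 and 7.70% in 3DF_50. The share was thus lowest in all 3 libraries of 3DF_50. The 2DF and 3DF conditions overlapped only where the lowest 2DF library (12.5%) met the highest 3DF library (12.6%). An exact permutation test over the 5 conditions gave p = 1.43e-05, one-sided. The mean share in 2DC, 20.1% ± 2.49, was 1.76 times that in 3DF, 11.4% ± 1.08, and 2.60 times that in 3DF_50, 7.71% ± 0.532 (SD, n = 3; exact permutation tests, two-sided, p = 0.1, the smallest that 3 against 3 allows). Between 3DF and 2DF the exact permutation p was 0.2.

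**Figure D4:**
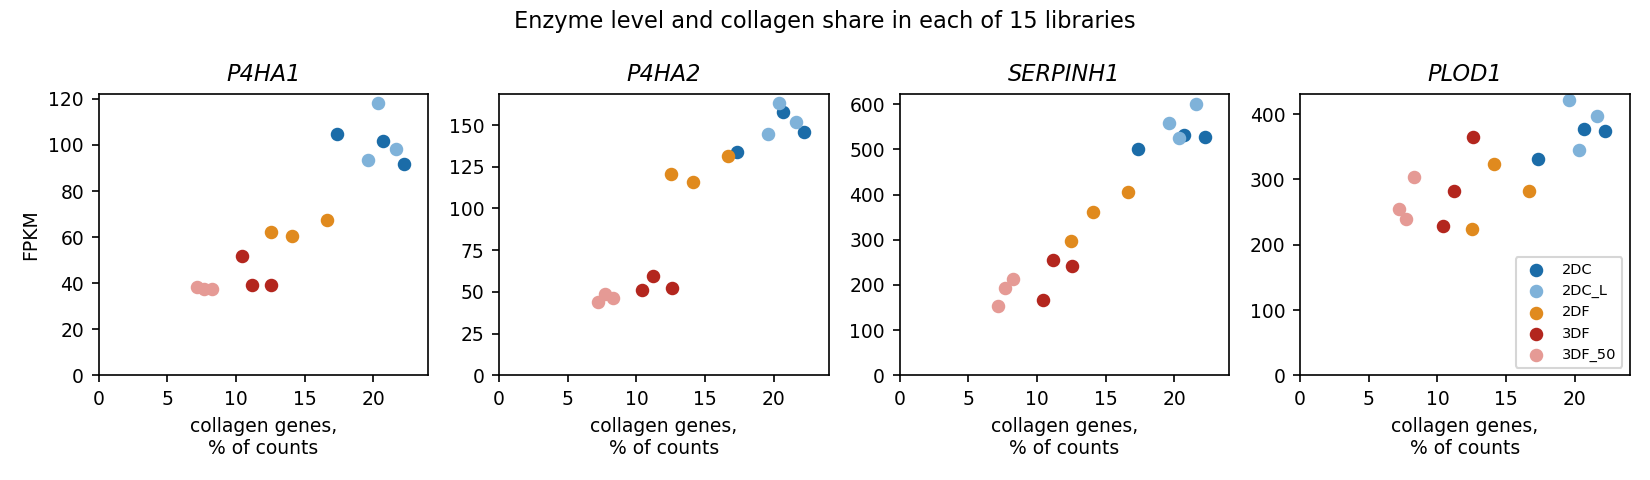
FPKM of P4HA1, P4HA2, SERPINH1 and PLOD1 against the percent of counts in collagen chain genes, 1 point per library, coloured by condition; both axes start at 0. On the collagen axis the 2DF libraries (12.5 to 16.6%) and 3DF libraries (10.4 to 12.6%) met only at their ends. P4HA2 was at 116 to 132 FPKM in the former and 51.4 to 59.3 FPKM in the latter. For COL1A1, COL1A2 and COL3A1 alone, the share was 7.98 to 11.7% in 2DF and 6.56 to 7.73% in 3DF, without overlap.

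Collagen reads held a large part of each library, so the genes were also tested with the collagen reads as the library size, which gives the change per collagen read. On this scale the median gene had a log2 fold change of 1.00 in 3DF vs. 2DC, 0.59 in 2DF vs. 2DC and 0.39 in 3DF vs. 2DF. In 3DF vs. 2DC PLOD1 was the only one of the 6 genes called, higher by 0.66 (SE 0.21, edgeR adjusted p = 0.00682), where 78.7% of all genes were called higher. P4HA2 was at -0.44 (SE 0.22, edgeR adjusted p = 0.0685), P4HA1 at -0.22 (SE 0.24, edgeR adjusted p = 0.384) and SERPINH1 at -0.27 (SE 0.23, edgeR adjusted p = 0.270). BMP1, PCOLCE, PLOD2 and PLOD3 lay between 0.02 and 0.28, none past the threshold. All 8 values were below the median of all genes on this scale, as they were with TMM scaling. Changing the library size shifts all genes by nearly the same amount, so this position is no separate result. With the reads of COL1A1, COL1A2 and COL3A1 alone as the library size, 3 of the 6 were called in place of 1.

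**Figure D5:**
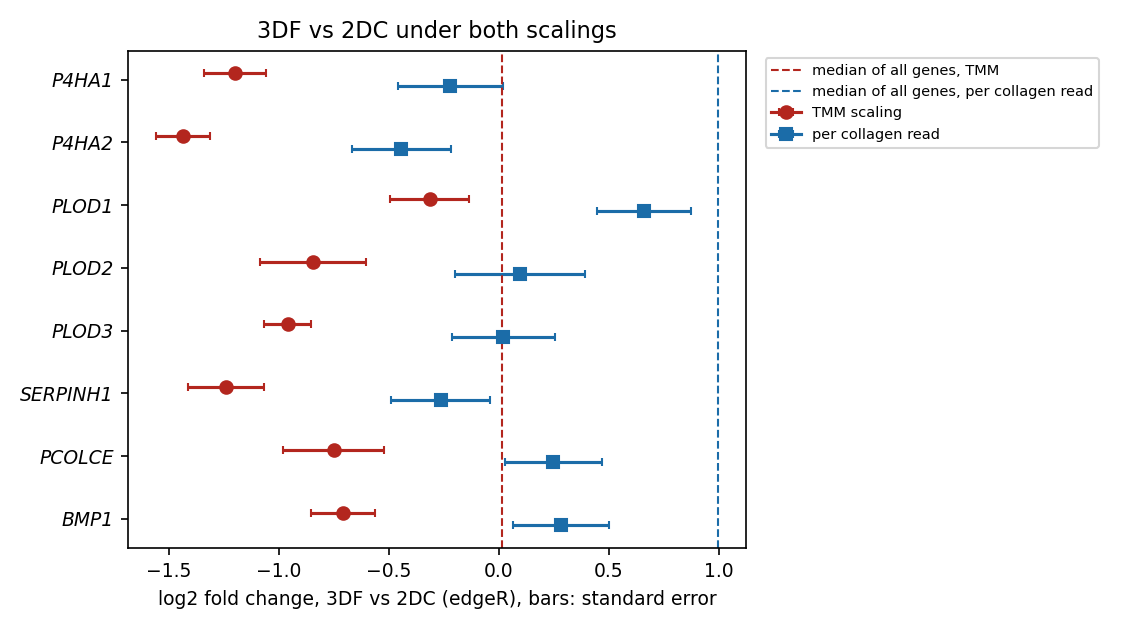
Log2 fold change with standard error for 3DF vs. 2DC with TMM scaling (circles) and per collagen read (squares), with dashed lines for the median of all genes under each. Per collagen read, all 8 genes lay between -0.44 and 0.66, with the median of all genes at 1.00. All 8 were below the median of all genes under TMM scaling too.

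In 2DF vs. 2DC edgeR called 0 of the 6 per collagen read, against 42.1% of all genes, and 1 had an unadjusted p under 0.05 (PLOD2, log2 difference 0.64, SE 0.29, edgeR adjusted p = 0.0583). Without 2DC replicate 3 the count was 1. P4HA1 was at -0.08 and SERPINH1 at 0.02 per collagen read. In 3DF vs. 2DF P4HA2 alone was called, with a log2 difference of -0.79 (SE 0.25, edgeR adjusted p = 0.0155), against 1.69% of all genes called lower. This call was lost without 2DF replicate 2 or 3DF replicate 2 or 3, and with COL1A1, COL1A2 and COL3A1 reads alone.

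The further steps of the pathway were described by fixed lists. Of 11 tested genes for prolyl 3-hydroxylation, peptidyl-prolyl folding and collagen glycosylation, 8 were lower and 0 higher in 3DF vs. 2DC, with a median log2 fold change of -0.91. Of all genes tested 8.38% were lower and 6.98% higher in that comparison. In 2DF vs. 2DC 7.63% were lower and 6.73% higher, and in 3DF vs. 2DF 2.65% were lower. These shares stand beside the counts of the lists that follow as well. P3H1 and CRTAP, which act in 1 complex on a few prolines, fell by 0.98 (SE 0.14, edgeR adjusted p = 0.00266) and by 0.78 (SE 0.11, edgeR adjusted p = 0.00263). P3H4, a partner of lysyl hydroxylase 1, fell by 1.48 (SE 0.20, edgeR adjusted p = 0.00206) and FKBP14, a prolyl isomerase of the endoplasmic reticulum, by 0.87 (SE 0.12, edgeR adjusted p = 0.00273). Of the 11, 6 were lower and 1 was higher in 2DF vs. 2DC, and in 3DF vs. 2DF 4 were lower. P4HA3, a further catalytic subunit of prolyl 4-hydroxylase, is in this list and was chosen for mention after its values were seen. It was at 1.16, 2.17 and 2.36 FPKM in 2DC, 0.309, 0.585 and 0.820 FPKM in 2DF and 0.0393, 0.0870 and 0.0974 FPKM in 3DF, without overlap.

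General chaperones of the endoplasmic reticulum moved in the same direction by less. Of 10 tested, 7 were lower and 0 higher in 3DF vs. 2DC, with a median of -0.63, and 1 was a DEG (PDIA6, a disulfide isomerase, which fell by 1.21, SE 0.21, edgeR adjusted p = 0.00634). PDIA4 and HYOU1 fell by 0.88 (edgeR adjusted p = 0.00232) and 0.84 (edgeR adjusted p = 0.00673), and HSP90B1 by 0.65 (edgeR adjusted p = 0.0177). In 2DF vs. 2DC 2 of 10 were lower, and in 3DF vs. 2DF 1 of 10. Genes for collagen export from the endoplasmic reticulum had a median of only -0.16 in 3DF vs. 2DC, with 2 of 11 lower, against 8.38% of all genes. These were CREB3L1, a transcription factor of the secretory pathway, at -0.95 (SE 0.15, edgeR adjusted p = 0.00376) and the coat protein gene SEC13 at -0.61 (SE 0.12, edgeR adjusted p = 0.0105).

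The other genes listed for propeptide removal, which are proteinases and the enhancer PCOLCE2, moved in both directions. Of 8 tested in 3DF vs. 2DC, 2 were lower and 2 higher, against 8.38% and 6.98% of all genes, with a median of -0.17. TLL1, a proteinase of the BMP1 family, was at 0.789, 0.981 and 0.459 FPKM in 2DC, 1.11, 0.719 and 0.693 FPKM in 2DF and 5.23, 6.68 and 7.59 FPKM in 3DF. It was 8.66 times as high in 3DF as in 2DC (log2 ratio 3.11, SE 0.28, edgeR adjusted p = 0.000302), while remaining below BMP1 in level per length in every library. ADAMTS3 rose by 1.18 (SE 0.13, edgeR adjusted p = 0.000802). ADAMTS2, the main N-proteinase of type I procollagen, fell by 0.98 (SE 0.15, edgeR adjusted p = 0.00355), and ADAMTS14 fell by 1.26 (SE 0.23, edgeR adjusted p = 0.00878).

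Some hydroxylase genes are known targets of the hypoxia response, which was therefore listed as well. Of 13 tested genes 2 were lower and 3 higher in 3DF vs. 2DC, against 8.38% and 6.98% of all genes, with a median of 0.15. In 2DF vs. 2DC 1 was lower and 4 higher, against 7.63% and 6.73%. VEGFA rose by 1.41 in 3DF (SE 0.21, edgeR adjusted p = 0.00336) and by 1.87 in 2DF (SE 0.20, edgeR adjusted p = 0.000734), and the histone demethylase gene KDM3A rose by 0.68 in 3DF (edgeR adjusted p = 0.0122). The glycolytic gene PGK1 fell by 0.76 in 3DF (edgeR adjusted p = 0.00830), and ADM fell by 1.45 (edgeR adjusted p = 0.0109). ADM was also 1.10 higher in 2DC than in 2DC_L, without overlap (SE 0.27, edgeR adjusted p = 0.418). Its level was 97.6 ± 39.8 FPKM in 2DC, 45.5 ± 9.34 in 2DC_L and 35.8 ± 7.77 in 3DF (SD, n = 3). Of the 34 collagen chains tested in 3DF vs. 2DC, 19 were lower and 1 higher, against 8.38% and 6.98% of all genes, with a median of -1.05. COL1A1 and COL1A2, the chains of type I collagen, fell by 1.49 (SE 0.21, edgeR adjusted p = 0.00249) and by 1.06 (SE 0.19, edgeR adjusted p = 0.00738), and COL6A1 was at 0.25 (edgeR adjusted p = 0.387).

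Markers of other cells were read beside these differences. All 6 keratocyte markers were present, and KERA was between 1507 and 4555 FPKM in every library. Of the 6, 5 passed the F test over the 5 conditions in edgeR, as did 41.8% of all genes tested. In 3DF vs. 2DC 1 was higher and 0 lower, and in 3DF_50 vs. 2DC 2 were lower and 2 higher. The summed FPKM of the corneal epithelium markers, 6 of 7 of which are in the table, was 0.0699 to 0.846 in 2DC, 0.685 to 5.72 in 2DF, 7.37 to 12.5 in 3DF and 0.0373 to 5.77 in 3DF_50. All 4 of these markers that could be tested were higher in 3DF vs. 2DC, and all 4 were DEGs. They passed the count filter through the 3DF libraries, where they were high, so this direction was largely fixed by the filter. KRT3, for example, had 1 to 4 counts in 2DC and 59 to 82 in 3DF. In 2DF vs. 2DC only 1 of the 7 could be tested. KRT12, the defining keratin, was at 0 in all 2DC and 2DC_L libraries, in 2DF replicate 1 and in 3DF_50 replicates 1 and 2. In those 3DF_50 libraries P4HA1 was at 37.7 and 38.6 FPKM and P4HA2 at 46.6 and 43.7 FPKM. Of the vascular endothelium markers CDH5 was higher in 2DF and in 3DF_50 than in 2DC and lower in 3DF_50 than in 2DF, with the sum at 1.81 to 2.84 FPKM in 2DC, 5.08 to 6.36 in 2DF and 2.63 to 4.94 in 3DF, while PECAM1 was near 0 in every library. Of the leukocyte markers CD68 was lower in 3DF vs. 2DF, at 2.81, 6.24 and 7.30 FPKM in the 2DF libraries and 1.74, 2.24 and 2.38 FPKM in the 3DF libraries, and PTPRC was near 0 in every library. The summed myofibroblast markers, 2 of 3 of which are in the table, were at 4.67 to 7.11 FPKM in 2DC, 1.38 to 3.50 in 2DF and 0.372 to 0.754 in 3DF, and both were lower in 3DF vs. 2DC. Of these, ACTA2 passed the count filter through the 2DC libraries (34 to 55 counts, against 2 to 6 in 3DF), so its direction was largely fixed by the filter. Of the 3 corneal endothelium markers tested, 1 was lower in 2DF vs. 2DC and 1 in 3DF_50 vs. 2DC. Their sum was 95.6 to 120 FPKM in 2DC, 69.4 to 77.3 in 2DF, 95.6 to 103 in 3DF and 68.8 to 85.5 in 3DF_50. The part of the corneal epithelium, corneal endothelium, vascular endothelium, leukocyte and myofibroblast markers in the results was not tested.

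The genes whose levels ran most like each member over the 15 libraries were found among 9689 genes by Pearson's r of log2(FPKM + 1), as a description. Libraries of 1 condition share their culture, so the points are not independent. For P4HA1 these were CDH8 (r = 0.992), RPN2 and FBXL7, and for P4HA2 they were TMEM178A (r = 0.992), TANC1 and AJUBA. SERPINH1 ran most like PDIA4 (r = 0.990), HDLBP and PDIA6. PLOD1 had the weakest match, with VAPB (r = 0.930), ITM2C and PACSIN2. PLOD2 ran most like PTPN13 (r = 0.971), MGP and DAB2, and for PLOD3 TM9SF4 (r = 0.977) and BMPER were among the nearest. For PCOLCE the nearest were KDELR1 (r = 0.961), IGFBP5 and MRC2, and for BMP1 they were BCAP31 (r = 0.965), DNAJC5 and C2H2orf40.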

How the data were processed

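The authors aligned the reads to oryCun2 with HISAT2 and counted them per gene with featureCounts, and deposited raw counts and FPKM in separate tables. Whether the counting used strand is not given in the sources used here. Counts were tested per pair of conditions by quasi-likelihood F tests in edgeR 4.0.16 after filterByExpr (minimum count 10) and TMM normalization, with Benjamini–Hochberg adjustment over all genes tested. Collagen reads replaced the library size for values per collagen read. Intervals are 95% intervals from the standard error and the degrees of freedom of the same test. Ratios and collagen shares were tested by exact permutation. The permutations over 5 conditions treat all 15 libraries as exchangeable and take no account of the prefixes that some libraries of different conditions share. The deposited FPKM were used as given for levels.

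SERPINH1 and PLOD3 were matched by RefSeq gene ID, and P4HB is not analysed here. All members were named. Of the genes that the likeness rule names, 1 is not reported here. From each list at most 4 genes were named, those with the smallest adjusted p in 3DF vs. 2DC at a mean of at least 1 FPKM, apart from collagen chains. The members and lists were chosen with earlier results of these data known. In simulated counts for 3DF vs. 2DC, 96.5% of 200 genes given a log2 change of 2 were recovered, and 12 unchanged genes were called, of 13493 in all. No member changed by as much in any comparison. Smaller changes and a shift in the collagen share were not simulated, so recovery at the sizes reported here is not known.

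Alternatives were DESeq2 1.42.0, limma 3.58.1 on log2(FPKM + 1) or log2(FPKM + 0.1), other scalings and filters, all conditions in 1 fit, the replicate number or library prefix as a term, and leaving out each library. Counting SERPINH1 and PLOD3 too was added after the data were seen. Replicates came from separate experiments. The replicate numbers were not treated as pairs, since in no comparison did the deviations of all same-numbered libraries correlate above 0.1 (correlations from -0.155 to 0.313). In 2DC vs. 2DC_L all 3 were positive (0.313, 0.0769 and 0.117), and replicates 1 and 2 of those conditions share a library prefix. In the other comparisons no same-numbered libraries share a prefix, so the correlations could not show pairing by prefix there.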

Additional observations from a re-analysis of the deposited data

How the results depend on the processing

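Most main results are counts of called members. Over the alternatives other than leaving out a library, 171 main values changed little, counts by at most 1.5 times, and 7 moved further. Another 4 counts fell to 0 and 2 rose from 0. Of the log2 fold changes of single members (a chosen part of them in 3DF vs. 3DF_50 and 2DC vs. 2DC_L), 468 kept sign and call. The call was lost in 23 and gained in 12, and the sign turned in 3. Of the members lower in 3DF vs. 2DF (2), 1 remained called with the replicate number as a block and 1 with limma on log2(FPKM + 0.1), and 0 with the library prefix as a term, which also left 0 DEGs in place of 1. In 2DF vs. 2DC (2) the count was 0 with the prefix and 1 with limma on log2(FPKM + 0.1). The 2DF libraries share no prefix with 2DC, 2DC_L or 3DF, and 1 of them shares its prefix with a 3DF_50 library. Within 2DF vs. 2DC and 3DF vs. 2DF, condition and prefix therefore cannot be told apart. The replicate block changed no other count of members by more than 1.5 times. DESeq2 called 1 member in 3DF vs. 3DF_50, against 0. With COL1A1, COL1A2 and COL3A1 reads only, per collagen read, the counts were 3 in 3DF vs. 2DC (1), 1 in 2DF vs. 2DC (0) and 0 in 3DF vs. 2DF (1), and the log2 ratios of the collagen share to 2DC were -1.08 in 3DF (main value -0.81), -0.65 in 2DF (-0.48) and -1.82 in 3DF_50 (-1.37). The cause was not tested.

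When single libraries were left out, the counts of called members ranged from 2 to 4 in 3DF vs. 2DC, 1 to 2 in 2DF vs. 2DC, 1 to 3 in 3DF vs. 2DF (1 to 2 DEGs) and 0 to 1 in 3DF vs. 3DF_50, and per collagen read from 0 to 1 in 2DF vs. 2DC and 0 to 1 in 3DF vs. 2DF. The exact p of the PLOD2 to PLOD1 ratio ranged from 0.0194 to 0.0922. Differences that none of the tests called turned sign: PLOD2 in 2DF vs. 2DC (-0.090 to 0.36), PCOLCE in 2DF vs. 2DC (-0.36 to 0.0026), PLOD1 in 3DF vs. 2DF (-0.11 to 0.23), BMP1 in 3DF vs. 2DF (-0.23 to 0.012) and PLOD1 in 3DF_50 vs. 2DF (-0.18 to 0.074). In 3DF_50 vs. 2DF, PLOD1 was at 0.19 and BMP1 at 0.038 with library size only, and PLOD1 at 0.16 with the prefix as a term. Library size only moved the median log2 change over all genes to 0.19 in 3DF vs. 2DC, 0.11 in 2DF vs. 2DC, 0.37 in 3DF_50 vs. 2DC, 0.25 in 3DF_50 vs. 2DF and -0.15 in 3DF vs. 3DF_50.

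The planned ratios with P4HB could not be computed. With 3 libraries per condition no exact test between a pair of conditions can pass 0.05. PLOD2 has the fewest counts, which limits its precision.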
